A study of Mus musculus with 22 samples.

Results

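The comparison of whole flaxseed with the sum of 2 of its components used all 22 of 22 lanes of the series and asked, for each miRNA, whether the seed's effect equals the effects of its oil and its lignan added together. Each lane held total RNA of the fourth left mammary gland of an individual female C57BL/6 mouse, profiled on a NanoString nCounter panel, which counts each miRNA through a fluorescent barcode without amplification. The mice were 4 to 5 weeks old at the start, were randomized 6 to a group, and ate for 3 weeks the basal AIN-93G diet (5 lanes), 10% flaxseed (6 lanes), 3.67% flaxseed oil (5 lanes) or 0.15% secoisolariciresinol diglucoside, SDG (6 lanes). AIN-93G, a purified rodent diet, is the basal group's diet, and the labels do not say whether the oil and SDG doses equal what the seed diet supplies. The lanes numbered 5 of the basal and the oil group were excluded by the authors for too few probes above background and were not analysed here.

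Flaxseed oil is rich in alpha-linolenic acid, and SDG is the seed's main lignan, which gut bacteria convert to the mammalian lignans enterodiol and enterolactone. The seed also brings fibre and protein of its own, which the oil and the SDG added to the other diets do not. A miRNA is a short RNA whose seed, bases 2 to 8 from its 5′ end, pairs with target messenger RNAs and lowers their translation or stability. Many miRNAs lie in genomic clusters that are transcribed together, and many are restricted to 1 cell type, so that in a whole gland their level also follows the make-up of the tissue. In this bulk tissue fewer cells of a type and less RNA per cell cannot be told apart.

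The departure from additivity, called the interaction here, was the seed effect minus the oil effect minus the SDG effect, each against basal, on the log2 scale. A value of 0 means that the 3 effects add up, a positive value that the flaxseed level lay above the additive level and a negative value that it lay below. Since the basal lanes enter all 3 effects, the interaction equals the basal and flaxseed lanes together minus the oil and SDG lanes together, and the 3 effects are set side by side only.

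Mature sequences of leading miRNAs are shown beside their seed mates, whether or not those led too, so that members of 1 family can be compared, with the seed in capitals (5′ to 3′, RefSeq, GRCm38.p6). The miR-17/92 cluster and its paralogs, polycistronic transcripts known to promote cell proliferation and lymphocyte survival, carry 3 of these seeds.
miR-17: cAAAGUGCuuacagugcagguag
miR-20a: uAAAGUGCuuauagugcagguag
miR-106b: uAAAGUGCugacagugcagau
miR-93: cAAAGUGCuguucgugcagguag
miR-19a: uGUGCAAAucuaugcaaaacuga
miR-19b: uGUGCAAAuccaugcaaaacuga
miR-92a: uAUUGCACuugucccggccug
miR-25: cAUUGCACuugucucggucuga
The probe for miR-17 also detects miR-106a. miR-19a and miR-19b differ at 1 base, U11C, counted from 1 at the 5′ end of miR-19a. miR-92a and miR-19b are each made from 2 loci, on chromosome 14 and on chromosome X, which the counts cannot separate.

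The miR-15/16 family shares another seed. Its members are known to hold back the cell cycle.
miR-15b: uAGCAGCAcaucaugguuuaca
miR-16: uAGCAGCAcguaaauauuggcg
miR-15a: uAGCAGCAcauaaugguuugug
miR-195: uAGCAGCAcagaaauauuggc
miR-15b lies on chromosome 3 inside the span of Smc4, with 1 copy of miR-16 beside it.

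miRNAs of blood cells, striated muscle and an imprinted cluster made up most of the other leading ones.
miR-142-3p: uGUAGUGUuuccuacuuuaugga
miR-342-3p: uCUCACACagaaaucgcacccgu
miR-223: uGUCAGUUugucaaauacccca
miR-133b: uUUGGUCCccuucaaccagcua
miR-206: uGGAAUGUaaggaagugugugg
miR-410: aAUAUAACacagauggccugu
miR-382: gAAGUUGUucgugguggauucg
miR-127: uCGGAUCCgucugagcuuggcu
miR-204: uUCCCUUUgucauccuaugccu
miR-211: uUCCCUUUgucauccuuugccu
miR-204 and miR-211 are shown because they share a seed and differ at 1 base, A17U counted from the 5′ end of miR-204, yet lay on opposite sides of additivity. miR-211 was below background in 17 of 22 lanes, among them all 5 basal and 5 of 6 flaxseed lanes. Its side of additivity is thus set against groups at the background.

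No miRNA departed from additivity past an adjusted p of 0.05 in edgeR's quasi-likelihood test, 0 of 253 tested probes (0%), and limma-voom also called 0 of 253 (0%). The smallest edgeR adjusted p was 0.0758, for miR-150, and 8 miRNAs had an adjusted p under 0.1. At an unadjusted p under 0.05 there were 43 of 253 (17.0%), with 26 above additivity (10.3%) and 17 below (6.72%). DESeq2 called 11 of 246 (4.47%). Above additivity these were miR-1, miR-133a, miR-133b, miR-486 and miR-223. The calls of DESeq2 below additivity were miR-150, miR-92a, miR-142-3p, miR-342-3p, miR-15b and miR-106b. The number of calls therefore depended on the test, and the values below describe the leading miRNAs without a call.

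The interaction combines 4 group means and is measured less precisely than a single diet effect. Its median SE was 0.43 on the log2 scale, against 0.31 for flaxseed, 0.32 for oil and 0.31 for SDG against basal. The median half-width of the 95% interval was 0.90, with a range of 0.40 to 4.48. For 61 of 253 probes the whole interval lay within 1 log2 unit of 0, and for 202 within 2. A departure of up to 1 log2 unit thus was not excluded for most miRNAs. The median interaction over all 253 probes was 0.17, with 150 probes above 0 and 103 below, with quartiles of -0.31 and 0.52.

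In all 20 miRNAs with the smallest p, the oil and SDG estimates lay on the same side of basal, 8 above it and 12 below it. Among all 253 probes 181 had oil and SDG effects of the same sign. The flaxseed effect was smaller in size than both component effects in 17 of the 20 and in 98 of the 253. By the fitted effects the seed thus stood nearer to basal than either component for most leading miRNAs. These signs describe how the interaction is built: a large interaction arises where 2 components that share the basal lanes lie on 1 side, and the 20 were chosen by p, so the counts support nothing further.

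**Figure D1:**
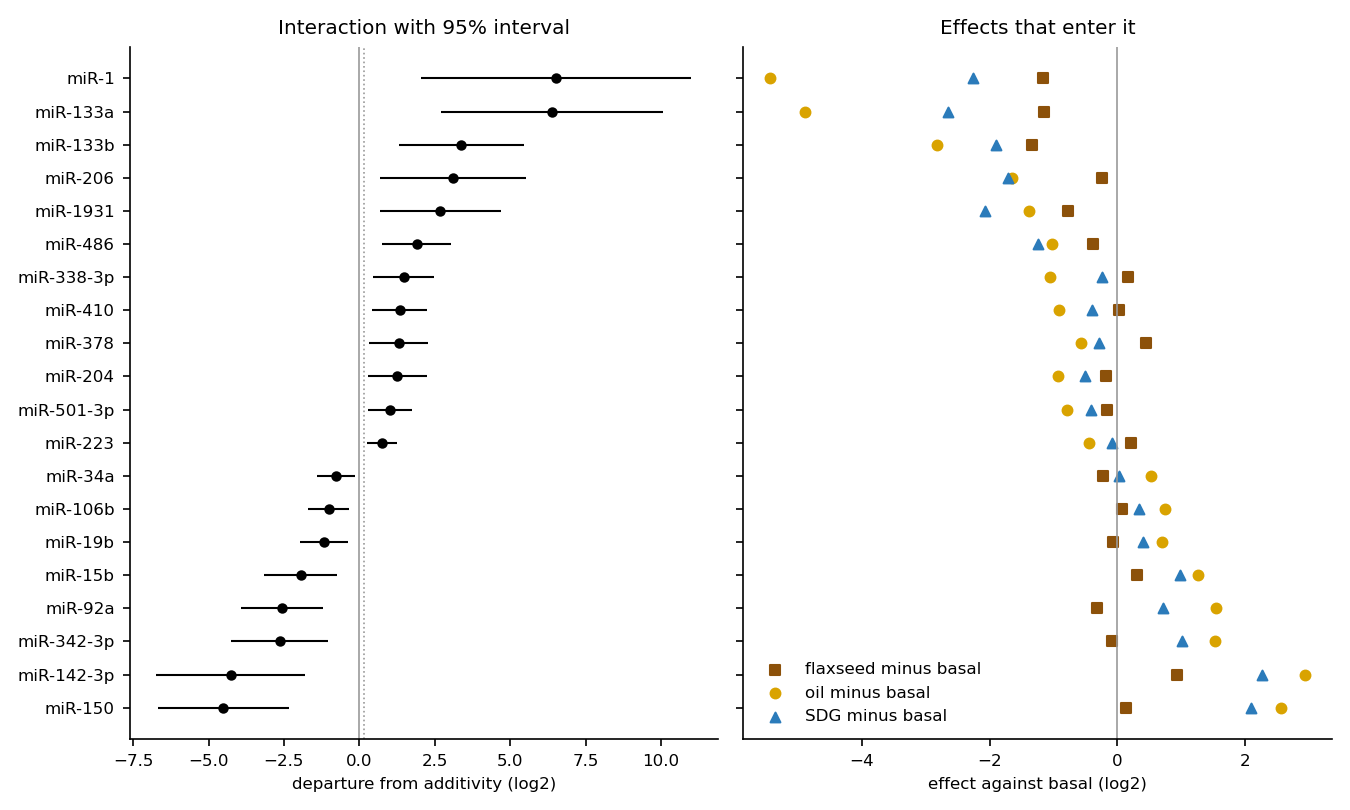
Left, the interaction of the 20 miRNAs with the smallest p (log2, points) with its 95% interval (bars), the solid line at 0 and the dotted line at the median of all 253 probes, 0.17. Right, the log2 effects of flaxseed (squares), oil (circles) and SDG (triangles) against basal, which share the basal lanes; oil and SDG lie on the same side of 0 in all 20, from the muscle miRNAs at the top to miR-150 at the bottom.

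Among the lymphocyte miRNAs, miR-150, abundant in mature B and T cells, had the smallest p. Its level in log2 CPM (counts relative to the TMM-scaled total of the lane) was 12.10, 11.45, 11.12, 11.38 and 11.26 in the basal lanes and ran from 11.36 to 12.22, with a median of 11.55, in the flaxseed lanes. In the oil lanes it was 14.04, 11.37, 15.02, 14.89 and 11.34. In the SDG lanes it was 14.46, 15.27, 11.11, 11.78, 11.09 and 12.01. Oil lanes 1, 3 and 4 and SDG lanes 1 and 2 stood above all other lanes, while no other oil or SDG lane exceeded the highest flaxseed lane. The fitted effects were 0.14 for flaxseed, 2.56 for oil and 2.09 for SDG, and the interaction was -4.51 ± 1.05 (SE, 95% interval -6.69 to -2.33, edgeR adjusted p = 0.0758). The edgeR fit compares mean counts, so that high lanes weigh more. The same contrast of mean log2 levels was -2.88.

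miR-142-3p, found throughout blood cell lineages, repeated this order of lanes. Its log2 CPM was 15.03, 16.22 and 15.91 in oil lanes 1, 3 and 4 and 15.54 and 15.98 in SDG lanes 1 and 2, against 10.48 to 12.47 in the basal lanes. Flaxseed lane 3, at 14.73, came next, and the other flaxseed lanes reached at most 12.55. The interaction was -4.27 ± 1.19 (SE, edgeR adjusted p = 0.0898).

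miR-342-3p, encoded within Evl and also abundant in lymphocytes, reached 11.60, 12.64 and 12.31 log2 CPM in oil lanes 1, 3 and 4 and 11.97 and 12.42 in SDG lanes 1 and 2. The other 17 lanes lay at or below 10.40, and its interaction was -2.64 ± 0.77 (SE, edgeR adjusted p = 0.0898). The other arm of its hairpin, miR-342-5p, had -1.17 but was below background in 16 of 22 lanes. The remaining lymphocyte markers on the panel, miR-142-5p, miR-155, miR-181a and the shared probe of miR-181b and miR-181d, had interactions between 0.05 and 0.38. The lymphocyte list thus had 4 of 8 tested members below 0 and 4 above, with a median of -0.56 against 0.17 for all probes. The 2 arms of miR-142 stood apart, at -4.27 and 0.06.

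The same 5 lanes ranked highest for 11 of the 253 tested miRNAs. Besides the 3 above these were miR-92a, miR-106b, miR-19a, miR-19b, miR-15b, miR-16, miR-374 and miR-467f. All 11 had an interaction below 0, which follows from the choice, since the 5 lanes are all in the diets that are subtracted. The summed level of the 8 lymphocyte markers ran from 13.71 to 13.87 log2 CPM in the basal lanes, from 13.75 to 15.54 in flaxseed, from 13.53 to 16.91 in oil and from 13.74 to 16.84 in SDG lanes. This sum contains miR-150, miR-142-3p and miR-342-3p themselves, so that it is no separate measure of them. Flaxseed lane 3 had the highest sum of its diet, with miR-142-3p at 14.73 log2 CPM, but also the lowest miR-342-3p of all lanes, at 7.83. The part of lymphocyte RNA in the result was not tested.

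**Figure D2:**
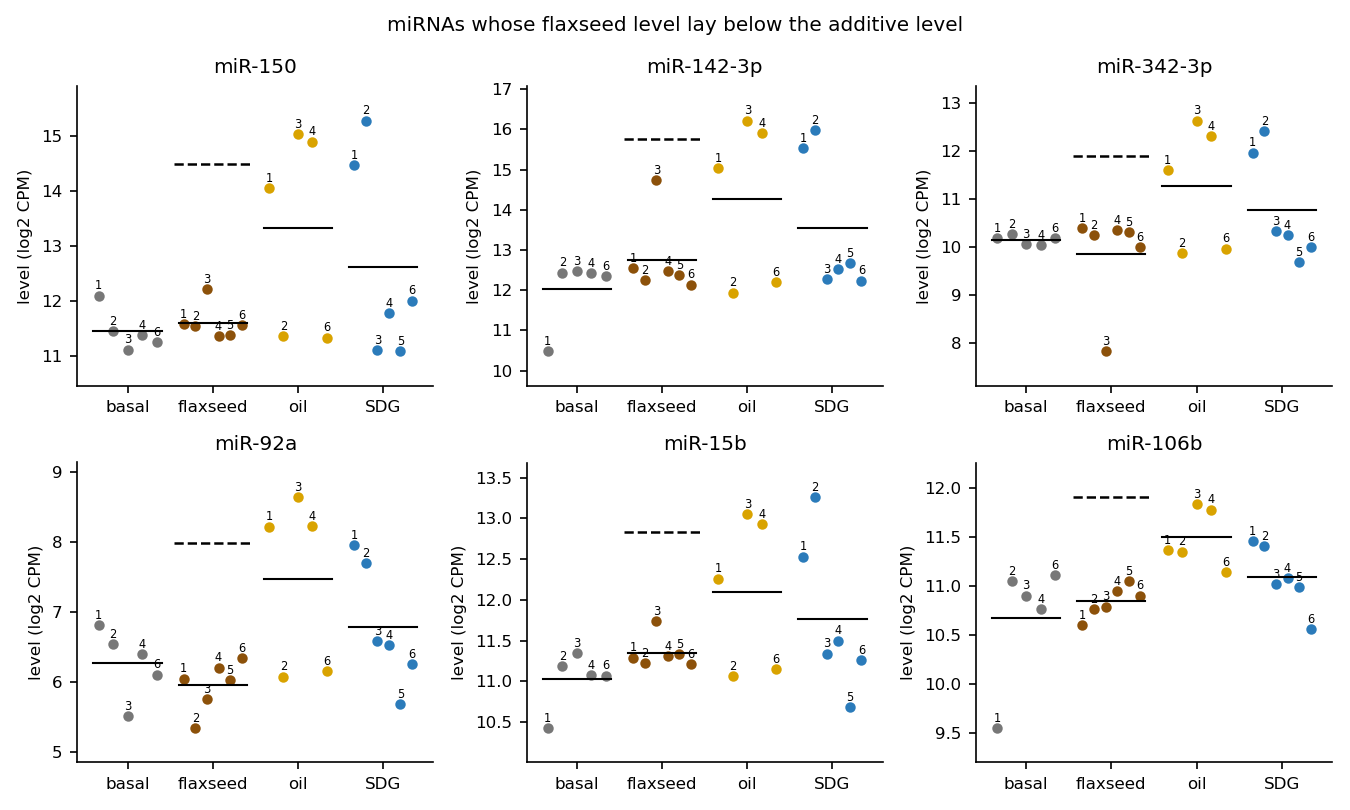
Level of 6 miRNAs in each lane (log2 CPM), by diet, with the lane's replicate number at each point, the group mean as a solid line and the additive level (oil mean plus SDG mean minus basal mean) as a dashed line over flaxseed. Oil 1, 3 and 4 and SDG 1 and 2 are the highest lanes for all 6 miRNAs, and the dashed line lies above every flaxseed lane.

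The miR-17/92 cluster lay below additivity in all its members. It was represented by 6 tested probes at chr14:115043671-115044506 on the plus strand (GRCm38.p6). The 6 interactions ran from -2.57 to -0.57 with a median of -0.87, and 4 of the 6 had an unadjusted p under 0.05. Over all 253 probes 103 lay below 0, and 17 (6.72%) did so with such a p. The median effects against basal were -0.04 for flaxseed, 0.59 for oil and 0.41 for SDG. The paralogous cluster of miR-106a and miR-363 on the minus strand at chrX:52741693-52742567 had a median of -0.96 over 4 probes, but these probes are all shared with miR-17/92, so the loci give 1 set of measurements. No member passed the adjusted threshold.

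Of these, miR-92a, which shares its seed with miR-25, led with an interaction of -2.57 ± 0.65 (SE, 95% interval -3.92 to -1.22, edgeR adjusted p = 0.0872). Its levels were low: it was above the lane's background in 11 of 22 lanes, namely 2 of 5 basal, 1 of 6 flaxseed, 4 of 5 oil and 4 of 6 SDG lanes. It read 8.22, 6.08, 8.64, 8.23 and 6.16 log2 CPM in the oil lanes, and 7.96 and 7.70 in SDG lanes 1 and 2. No other lane exceeded 6.81. As the 5 highest lanes of this miRNA, these cannot overlap with the other 17, so the gap between them tests nothing.

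The remaining members were less spread. miR-19b had an interaction of -1.17 ± 0.39 (SE, edgeR adjusted p = 0.119) and its near-twin miR-19a had -0.99 ± 0.41 (edgeR adjusted p = 0.256). The levels of miR-19b were 9.40, 10.61, 10.82, 10.60 and 10.97 log2 CPM in the basal lanes and 11.25, 11.11, 11.58, 11.47 and 10.83 in the oil lanes, with overlap at 1 oil lane. The probe of miR-17 and miR-106a had -0.75, the probe of miR-20a and miR-20b -0.58 and miR-18a, below background in 10 lanes, -0.57.

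The related miR-106b/25 cluster, within the span of Mcm7 at chr5:138165321-138165818 on the minus strand, was not uniform. miR-106b, with the seed of miR-17, had an interaction of -1.02 ± 0.33 (SE, edgeR adjusted p = 0.119). Its level ran from 9.55 to 11.11 log2 CPM in basal, from 10.60 to 11.05 in flaxseed, from 11.14 to 11.84 in oil and from 10.56 to 11.46 in SDG lanes. All oil lanes lay above all basal and flaxseed lanes, and the SDG lanes overlapped with all groups. miR-93 had -0.40 and miR-25, in spite of the seed it shares with miR-92a, 0.23.

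In the miR-15/16 family all 6 tested members lay below 0, with a median of -0.47. Over all probes 103 of 253 lay below 0, with a median of 0.17. In this family 1 member lay below with an edgeR unadjusted p under 0.05, against 17 of 253 probes (6.72%). Under housekeeping scaling of all lanes 2 of the 6 members lay above 0, and likewise 2 under positive control scaling. miR-15b stood apart from the others, at -1.95 ± 0.58 (SE, edgeR adjusted p = 0.0898). It reached 12.26, 13.05 and 12.93 log2 CPM in oil lanes 1, 3 and 4 and 12.53 and 13.26 in SDG lanes 1 and 2, and at most 11.74 elsewhere. miR-16, which is also encoded next to miR-15b, had -0.85 and miR-15a -0.46, neither with an unadjusted p under 0.05. The members miR-195, miR-497 and miR-322 lay between -0.48 and -0.26.

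The striated muscle miRNAs lay on the other side of additivity, and miR-1 had both the largest interaction and the widest interval of all 253 probes. miR-1 and miR-133a, which act in the differentiation of heart and skeletal muscle, miR-133b, and miR-206, which is specific to skeletal muscle, all had positive interactions with an unadjusted p under 0.05. Over all 253 probes 26 (10.3%) lay above additivity with such a p. The fifth tested member, miR-499, encoded within Myh7b and below background in 15 lanes, had 0.22. Their list median was 3.38, against 0.17 for all probes.

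For miR-1 the basal lanes read 12.36, 8.25, 16.33, 17.43 and 9.95 log2 CPM, a range wider than that of any other diet. The flaxseed lanes read from 12.50 to 15.74 with a median of 13.69, and the oil lanes 11.68, 8.73, 8.0, 7.86 and 10.95. The SDG lanes read 8.15, 8.24, 8.26, 12.47, 15.86 and 9.71. All 6 flaxseed lanes lay above all 5 oil lanes, while basal and SDG lanes overlapped with both. The interaction was 6.53 ± 2.16 (SE, 95% interval 2.05 to 11, edgeR adjusted p = 0.119), from fitted effects of -1.16 for flaxseed, -5.43 for oil and -2.26 for SDG. The fit compares mean counts, which basal lanes 3 and 4 dominate. On mean log2 levels flaxseed lay above basal instead, at 14.02 against 12.86, and the same contrast was 7.0.

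miR-133a followed the same lanes, with 11.51, 5.37, 12.26, 13.34 and 6.35 log2 CPM in basal and 8.29, 5.47, 5.01, 5.14 and 7.72 in oil. Its flaxseed lanes ran from 8.94 to 11.71 and its SDG lanes from 5.82 to 11.50. It lay below the lane's background in 1 basal, 3 oil and 3 SDG lanes. The interaction was 6.38 ± 1.77 (SE, 95% interval 2.72 to 10.05, edgeR adjusted p = 0.0898), and here too the fitted flaxseed effect was below 0, at -1.15, while mean log2 levels were 10.37 in flaxseed and 9.77 in basal lanes. miR-133b, below background in 15 of 22 lanes, had 3.38 ± 1.01 (SE, edgeR adjusted p = 0.0898), and miR-206, below background in 10 lanes, 3.11 ± 1.16 (edgeR adjusted p = 0.194).

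The summed level of the 5 tested muscle markers ran from 8.92 to 17.52 log2 CPM in basal, from 12.67 to 15.84 in flaxseed, from 8.70 to 11.99 in oil and from 8.99 to 15.94 in SDG lanes. This sum is made of the same 4 miRNAs and miR-499, and is no separate measure of them. The part of muscle RNA in the result was not tested. On the linear CPM scale the additive level of miR-1 lay below 0. This held for 6 of the 20 leading miRNAs, miR-1 among them, and for 11 of all 253 probes, so that for these the additive level has a meaning on the log scale only. The sign of the departure was nevertheless the same on both scales for all 20 and for 245 of 253.

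**Figure D3:**
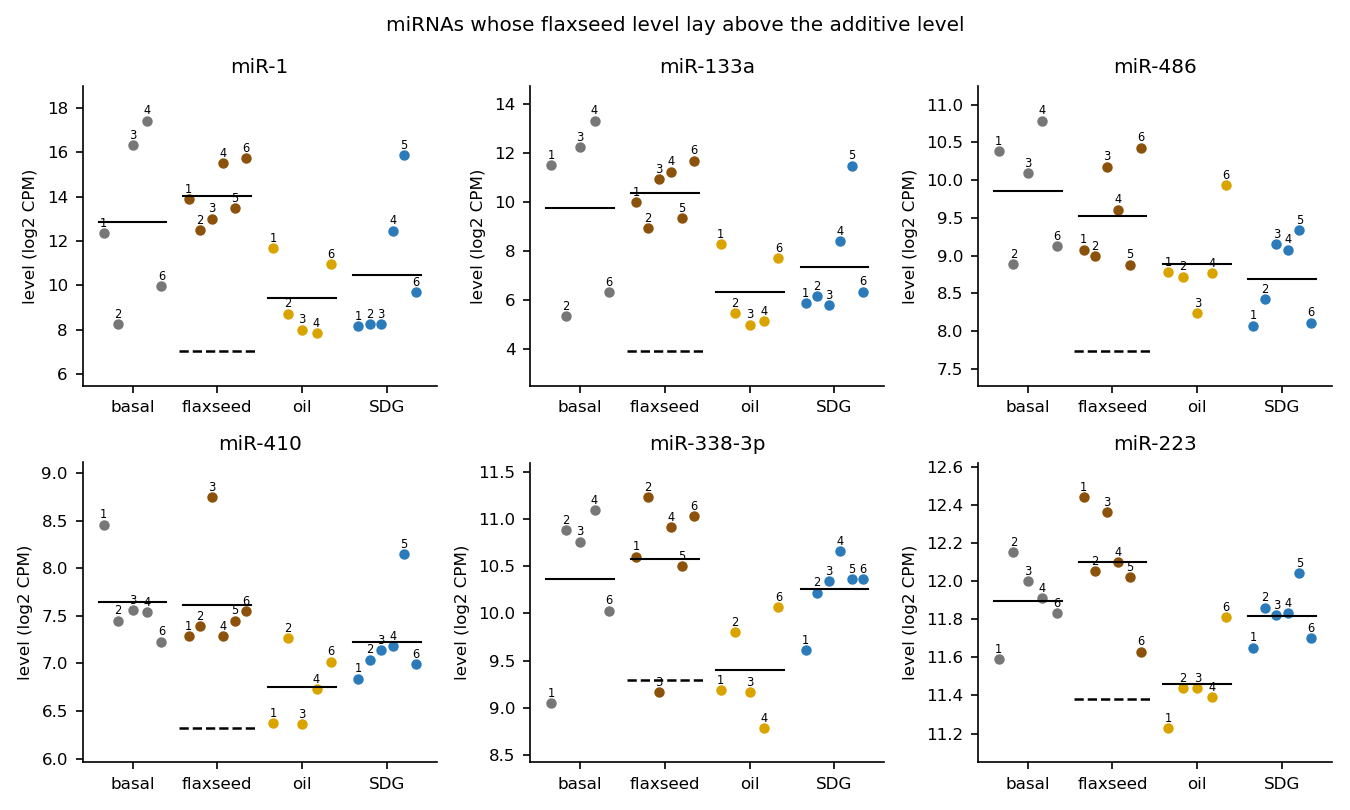
Level of 6 miRNAs in each lane (log2 CPM), by diet, drawn as for the miRNAs below additivity. For miR-1 and miR-133a the basal and SDG lanes are widely spread and every flaxseed lane lies above the dashed additive level; for miR-223 and miR-338-3p the oil lanes are lowest on average and the groups lie closer together.

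Among the other blood cell miRNAs, miR-486, abundant in red cells and in muscle, had an interaction of 1.89 ± 0.55 (SE, 95% interval 0.75 to 3.04, edgeR adjusted p = 0.0898). Its level was 10.39, 8.89, 10.09, 10.79 and 9.12 log2 CPM in basal lanes and 8.78, 8.72, 8.24, 8.77 and 9.93 in oil lanes. In flaxseed lanes it ran from 8.88 to 10.43 and in SDG lanes from 8.07 to 9.34. The groups overlapped. The red cell miRNAs miR-451 and miR-144 had -0.04 and -0.12, so the red cell list did not move as one.

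miR-223, the defining miRNA of neutrophils and other myeloid cells, had the narrowest interval of the leading miRNAs. Its level was 11.59, 12.15, 12, 11.91 and 11.83 log2 CPM in basal lanes, from 11.63 to 12.44 in flaxseed, 11.23, 11.44, 11.44, 11.39 and 11.81 in oil and from 11.65 to 12.04 in SDG lanes. The oil lanes were lowest, with overlap at oil lane 6. The interaction was 0.74 ± 0.24 (SE, 95% interval 0.24 to 1.23, edgeR adjusted p = 0.119). miR-146a, induced by inflammatory signals and likewise on the myeloid list, had -1.32 with an unadjusted p of 0.0459, which turned to 0.35 under housekeeping scaling. miR-146b had -0.01.

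The imprinted Dlk1-Dio3 region, whose miRNAs are made from the maternal chromosome, lay above additivity in 21 of 22 tested members. The exception was miR-376a, at -0.03. Above 0 were 59.3% of all probes. The miR-379/410 part at chr12:109709060-109747960 on the plus strand had a median of 0.61 over 17 probes, and the part antisense to Rtl1 at chr12:109563692-109595388 had 0.63 over 5. Of the 22 members 6 lay above with an unadjusted p under 0.05, as did 26 of all 253 probes (10.3%), and none passed adjustment. Against basal, 21 of the 22 lay lower in oil lanes, with a median of -0.42. In SDG lanes 13 lay lower, with a median of -0.09. In flaxseed lanes 13 lay higher, with a median of 0.08.

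miR-410 led this cluster. It read 8.46, 7.45, 7.56, 7.54 and 7.23 log2 CPM in basal lanes, from 7.29 to 8.75 in flaxseed, 6.37, 7.27, 6.36, 6.73 and 7.02 in oil and from 6.84 to 8.15 in SDG lanes. Oil lanes were low, and only oil lane 2 reached into the range of the basal lanes. The interaction was 1.33 ± 0.44 (SE, edgeR adjusted p = 0.119). miR-127, which is antisense to Rtl1 and is known to repress it, had 1.37 ± 0.54 (SE, edgeR adjusted p = 0.226), and miR-382 had 1.15 ± 0.46 (edgeR adjusted p = 0.234). Without flaxseed lane 3 these were 0.87 and 0.65. The cluster's counts were low, with a median over members of 117.4 raw counts a lane.

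The position of the whole distribution depends on how lanes are scaled. Scaling by the housekeeping mRNAs moved the median of all probes from 0.17 to 0.76, scaling by total count moved it to -0.29, and positive control scaling moved it to 0.28. Without flaxseed lane 3, whose housekeeping level was 134.8 counts against at least 1070 in every other lane, housekeeping scaling gave -0.42. Relative to the median of all probes, the miR-379/410 median stayed above 0 and the miR-17/92 median below 0 in all 41 alternatives, from 0.29 to 0.74 and from -1.22 to -0.50 in turn. A change of scaling moves all probes by about the same amount, which subtracting their median removes. Of the 41 alternatives, 22 only left out 1 lane each. The count of 41 is thus no test of how far these medians depend on scaling. In absolute terms the miR-379/410 median was -0.05 under housekeeping scaling without flaxseed lane 3, and 10 of its 17 members then lay below 0. With positive control scaling and the lanes basal 1, flaxseed 3 and SDG 5 left out, in which miR-720 dominated, the miR-17/92 median was 0.06. The miR-15/16 median turned to 0.43 under that same setting, and the luminal epithelial median to 0.27. Under housekeeping scaling of all lanes 1 of the 6 miR-17/92 members lay above 0, as did the medians of the lymphocyte list (0.29) and of the Sfmbt2 list (0.45). The let-7 median turned to -0.28, and that of the miRNAs with numbers of 4 digits to -0.43, under housekeeping scaling without flaxseed lane 3.

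**Figure D4:**
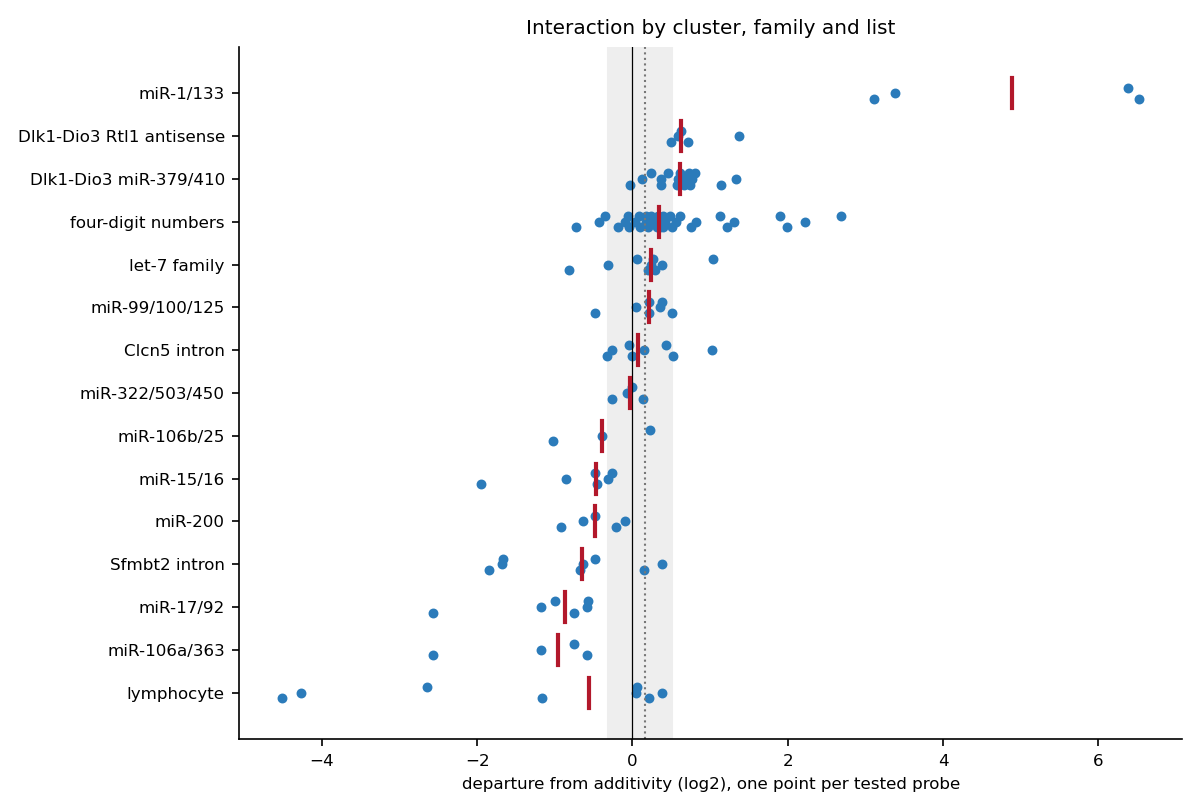
Interaction (log2) of each tested probe (points) in 15 clusters, families and lists, with the list median as a red bar. The shaded band spans the quartiles of all 253 probes and the dotted line their median, 0.17. The miR-1 and miR-133 members lie above all others shown, the Dlk1-Dio3 members mostly above the dotted line, and all miR-17/92 members below it.

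miR-338-3p, encoded within the kinase gene Aatk, had an interaction of 1.47 ± 0.49 (SE, edgeR adjusted p = 0.119). It read 9.05, 10.88, 10.76, 11.09 and 10.03 log2 CPM in basal and 9.19, 9.80, 9.17, 8.79 and 10.07 in oil lanes. Flaxseed lanes ran from 9.17 to 11.23 and SDG lanes from 9.61 to 10.66. The groups overlapped, with oil lanes lowest on average. miR-378, encoded within Ppargc1b and present in adipocytes and muscle, had 1.30 ± 0.47 (SE, edgeR adjusted p = 0.175), with flaxseed lane 3 at 14.17 and no other lane above 12.81. Without that lane the interaction was 0.71. The other 5 adipocyte markers lay between -0.41 and 0.91.

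The seed twins miR-204, within Trpm3, and miR-211, within Trpm1, lay on opposite sides. miR-204 had 1.26 ± 0.47 (SE, edgeR adjusted p = 0.194), with 8.87 to 9.98 log2 CPM in basal and 7.68 to 8.76 in oil lanes, which did not overlap. In flaxseed lanes it ran from 6.67 to 9.60 and in SDG lanes from 8.42 to 9.09. miR-211 had -3.06 ± 1.36 (SE, edgeR adjusted p = 0.281) but was above background in 5 of 22 lanes. These were oil 1, 3 and 4, SDG 2 and flaxseed 3, at 6.40 to 7.19 log2 CPM. The difference between the twins was not tested.

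The last of the leading 20 were small or noisy. miR-34a, a target of the tumour suppressor p53, had -0.79 ± 0.30 (SE, edgeR adjusted p = 0.207), with oil lanes between 8.39 and 9.31 log2 CPM and basal lanes between 7.98 and 8.80. miR-501-3p, within Clcn5 at chrX:7241270-7241291, had 1.02 ± 0.35 (edgeR adjusted p = 0.142) and was above background in 15 lanes. miR-1931 had 2.69 ± 0.97 (edgeR adjusted p = 0.175), with basal lanes from 6.10 to 10.02 log2 CPM and oil lane 2, at 8.91, apart from the other oil lanes.

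Markers of the gland's own cell types were not among the leading 20, apart from miR-378. Of 7 luminal epithelial miRNAs 6 lay below 0, with a median of -0.41, led by miR-200a at -0.92 and miR-200b at -0.64, and none had an unadjusted p under 0.05. Over all probes 103 of 253 lay below 0, with a median of 0.17. Of the 5 miR-200 family members among the 7, 3 lay above 0 under housekeeping scaling and 2 under positive control scaling. miR-205, of basal epithelium, had -0.05, and endothelial miR-126-3p 0.32. Smooth muscle miR-143 and miR-145 had -0.08 and 0.39. The 9 members of the let-7 family, which holds back proliferation, had a median of 0.24, with let-7b at 1.03 ± 0.46 (SE, edgeR adjusted p = 0.281) and at 0.45 without flaxseed lane 3. Housekeeping scaling without that lane gave let-7b -0.12. miR-21, a common oncogenic miRNA of breast tumours, had -0.22, and miR-30e 0.18.

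The intronic Sfmbt2 cluster is a large rodent repeat of related miRNAs. Its list, drawn up by miRNA family name and not by position, had 8 tested probes with a median of -0.66. Its members miR-467b (-1.84), miR-467f (-1.67) and the probe of miR-466a and miR-466b (-1.69) had an unadjusted p under 0.05. Over all 253 probes 17 (6.72%) lay below additivity with such a p. miR-467b and the probe of miR-466a and miR-466b were each below background in all 5 basal and 5 of 6 flaxseed lanes, so that the size of their interaction is set against groups at the background. Near-identical copies share these probes, so their sources are uncertain. The 36 probes for miRNAs with numbers of 4 digits had a median of 0.35, with 29 above 0 and 7 below, against 150 and 103 over all probes. Of the 36, miR-1931 and miR-1224 lay above with an unadjusted p under 0.05, 2 probes where the share over all probes was 10.3%. miR-1224, at 1.90, fell to 0.043 without flaxseed lane 3 and turned to -0.11 without basal 1, flaxseed 3 and SDG 5.

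Depth and controls bear on this contrast through the split of basal and flaxseed against oil and SDG lanes. Endogenous counts ran from 260062 to 761468 a lane, and the background threshold from 17.5 to 66.8 counts. The geometric mean of the 6 positive controls was 979 to 1350 counts in the 11 basal and flaxseed lanes and 1177 to 1513 in the 11 oil and SDG lanes. Their ratio was 0.875 (two-sided permutation p = 0.00188, adjusted p = 0.0150 over 8 measures). Computed as an interaction, like that of the miRNAs but on unscaled counts, the positive controls had -0.38 on the log2 scale. The other 7 measures, among them housekeeping mRNAs, total counts and negative controls, had adjusted p of 0.393 or more. The deposited lane names number the basal lanes from 1 to 6 and the flaxseed lanes from 7 to 12, and again the oil lanes from 1 to 6 and the SDG lanes from 7 to 12. Whether these were 2 separate runs is not given in the sources used here; were they so, run and interaction cannot be told apart.

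**Figure D5:**
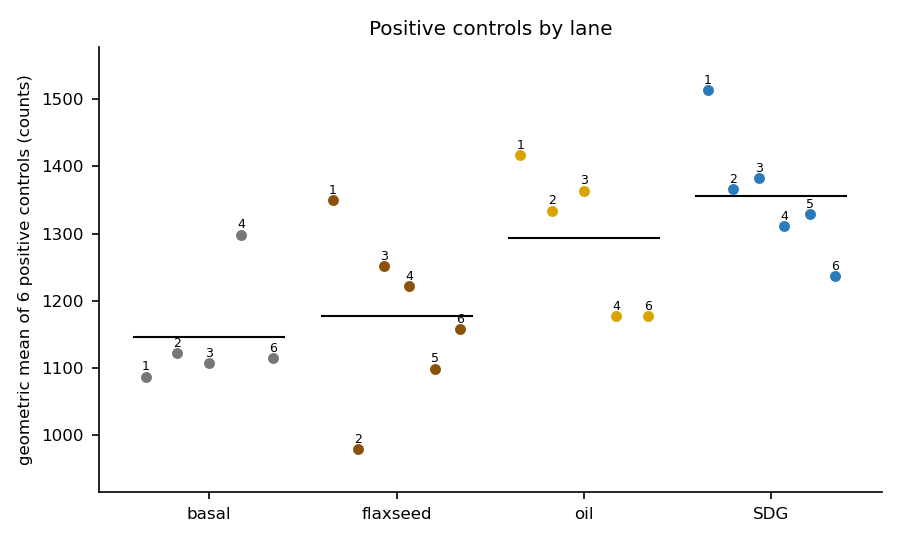
Geometric mean of the 6 positive control probes in each lane (raw counts), by diet, with the replicate number at each point and the group mean as a line. The basal and flaxseed lanes lie between 979 and 1350 counts and the oil and SDG lanes between 1177 and 1513; the vertical axis does not start at 0.

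Single lanes decided how many miRNAs passed. The probe for miR-720, which is derived from a transfer RNA, made up 65.5% of the counts in basal lane 1, 53.7% in flaxseed lane 3 and 47.4% in SDG lane 5, and from 2.38% to 8.62% in the other lanes. Its own interaction was 4.24 ± 1.89 (SE, edgeR adjusted p = 0.281). It fell to 1.23 without basal lane 1 and to 1.11 without flaxseed lane 3, but rose to 6.27 without SDG lane 5 (edgeR adjusted p = 0.0450). Under housekeeping scaling without flaxseed lane 3 it turned to -1.17. Without these 3 lanes edgeR called 15 of 241 probes (6.22%), 7 above and 8 below additivity. Of these, 10 were among the 11 calls of DESeq2 on all lanes, 90.9% of the latter and 66.7% of the former. The 5 further calls were miR-204, miR-338-3p, miR-410, miR-467b and miR-664. Leaving out SDG lane 5 alone gave 12 calls, oil lane 2 gave 6, oil lane 6 gave 4, flaxseed lane 3 gave 3 and SDG lane 3 gave 1, while each of the other 17 lanes left out gave 0 (edgeR, with 26 to 49 probes at an unadjusted p under 0.05 over the 22 fits).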

How the data were processed

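Per the file headers, each lane file deposited by the authors holds raw counts per probe with no scaling. A deposited table of log2 values for 238 miRNAs, normalized by the authors by steps not given in the sources used here, served as an alternative. Its column medians ran from 6.88 to 7.97, and its values correlated with log2 counts across probes at 0.914 to 0.997 within a lane. The miRNAs and lists were chosen with earlier results of these data known.

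Of 566 mouse endogenous probes, a probe was tested (253 in all) where at least 5 of 22 lanes exceeded their background, set per lane from its 8 negative controls as their mean + 2 SD. All lanes entered 1 quasi-likelihood fit (edgeR 4.0.16, R 4.3.3) with TMM scaling and diet as factor, with Benjamini-Hochberg adjustment over all tested probes. Each SE is the log2 value over the square root of its F. Levels are log2 CPM with a prior count of 1. Alternatives included limma 3.58.1 and DESeq2 1.42.0. Of the latter's p-values, 7 were missing for outlying counts. The test was checked on simulated counts, drawn independently for each probe, with effects placed in the flaxseed lanes only. They held no shift of a lane shared by many miRNAs, so the check does not cover such lanes.

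Set for description were 81 miRNAs: the 20 of smallest p, the 2 leading members of each list and fixed miRNAs. Not all of them are named above, and the neuronal and liver lists were left out. Of 5 tested neuronal miRNAs, miR-137 (0.89) and miR-138 (0.63) lay above additivity with an edgeR unadjusted p under 0.05, as did 10.3% of all probes. The 3 liver miRNAs had a median of -0.47. Further list members were chosen after their values were seen. Lists are hand-written, and 208 tested probes had a RefSeq position (GRCm38.p6). Of 40 miRNAs looked up, 35 had a mature sequence. Technical measures were compared by permutation (100000 resamples). Positional clusters join miRNA genes within 10 kb on a strand.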

Additional observations from a re-analysis of the deposited data

Results flagged for a closer look

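A lane was singled out where it stood apart from the other lanes of its diet by more of the group's range than chance usually allows (Dixon's 95% limit), over the 20 leading miRNAs. Of 80 groups tested 18 had such a lane, where chance gives about 1 in 20. The 80 groups reuse the same 22 lanes for 20 miRNAs chosen by p. They are not independent, so the excess over 1 in 20 is no test. Flaxseed lane 3 accounted for 10 and basal lane 1 for 5, and 16 of the 18 lay in the 3 lanes led by miR-720.

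In flaxseed lane 3 the level was highest of its diet for miR-150 (12.22 log2 CPM), miR-142-3p (14.73), miR-15b (11.74), miR-410 (8.75), miR-378 (14.17) and miR-206 (10.08). It was lowest for miR-342-3p (7.83), miR-338-3p (9.17), miR-204 (6.67) and miR-34a (7.09). Basal lane 1 was lowest for miR-142-3p (10.48 log2 CPM), miR-106b (9.55) and miR-19b (9.40), and highest for miR-410 (8.46) and miR-501-3p (7.84). SDG lane 5 was highest for miR-410 (8.15 log2 CPM), basal lane 3 for miR-204 (9.98) and oil lane 2 for miR-1931 (8.91). The lymphocyte miRNAs of oil lanes 1, 3 and 4 and SDG lanes 1 and 2 were not singled out by this rule, since several lanes of a diet were high together.

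Of 33 viral probes, which were left out of the reported fit, 1 was above background in 21 of 22 lanes. Its raw counts ran from 144 to 229 with a median of 199 in oil lanes, above all basal lanes at 81 to 134. They were 12 to 99 in flaxseed and 39 to 107 in SDG lanes, and its interaction, in the alternative fit with viral probes, was -0.55 (edgeR adjusted p = 0.582).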

How the results depend on the processing

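The number of miRNAs past an adjusted p of 0.05 was 0 in the reported fit and stayed 0 with limma-voom. In edgeR it stayed 0 with scaling by housekeeping mRNAs, positive controls, DESeq2's size factors or the 100 most abundant probes. It also stayed 0 in edgeR with the stricter filter (219 probes), negative control subtraction or viral probes included. Fits in limma of the linear CPM scale and of the deposited log2 table gave 0 as well. The number was 11 with DESeq2, 4 with total count scaling, 2 with total count without miR-720 and 1 with no filter. It was 15 without the 3 lanes led by miR-720 and 0 to 12 when each lane was left out in turn. Chosen after seeing the data, housekeeping scaling without flaxseed lane 3 gave 9. The fit without the 3 lanes, also repeated after seeing the data, gave 14 with the tested probes kept, 27 with DESeq2 and 9 with positive control scaling. Of 34 miRNAs carried through, 27 kept their direction in every setting run, all 20 leading ones among them. The others reversed as follows: miR-146a (0.35) and miR-425 (0.41) under housekeeping scaling, and let-7b (-0.12), miR-720 (-1.17), miR-27b (-0.089), miR-532-5p (-0.034) and miR-1224 (-0.29) under housekeeping scaling without flaxseed lane 3. Without the 3 lanes miR-1224 was at -0.11, with the probes kept at -0.046 and with DESeq2 at -0.032. The causes were not tested. With the replicate number as a block the count was 0 (29 at an unadjusted p under 0.05, against 43). The numbers did not pair the lanes: over 31 pairs the correlation ran from -0.62 to 0.53, and 3 of 22 lanes correlated best with their own number. Mouse probes only was the reported fit itself, and a cartridge block was not run, since no header gives one. Low counts limit miR-92a, miR-133b, miR-206, miR-211, miR-467b, miR-342-5p, miR-499, miR-18a and the probes of miR-466a with miR-466b and of miR-181b with miR-181d, each below background in 10 or more lanes.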
